A study of Bos taurus with 3 samples.

Results

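Glutathione and detoxification enzymes were followed through the cells of the newborn rumen by way of 10 genes, GSTA1, MGST1, MGST2, MGST3, GSTP1, GPX1, GPX4, NQO1, NQO2 and UGT1A1. The list was made with earlier results of these data known, and its rows were found by symbol out of 27270 gene rows. It matched 11 rows of the count matrices because GSTP1 stands there under 2 identifiers, ENSBTAG00000051210 and ENSBTAG00000003548. The samples were rumen tissue of 3 newborn dairy calves, at 1 day of age per the paper. They were labelled as replicates 1 to 3 of one group with no treatment or genetic change given. Each gave 1 droplet library of the 3′ ends of transcripts. The muscle layers had been stripped before EDTA, trypsin and collagenase digestion, so the libraries held dissociated epithelium and its underlying stroma. All comparisons were made between cell classes or epithelial states within the same calves.

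Glutathione is a small thiol that cells use against peroxides and reactive electrophiles. Glutathione S-transferases attach it to foreign or toxic compounds. GSTA1 and GSTP1 are soluble members, whereas MGST1, MGST2 and MGST3 are integral membrane proteins. Glutathione peroxidases spend glutathione on peroxides, GPX1 on hydrogen peroxide in the cytosol and GPX4 on lipid peroxides within membranes. NQO1 and NQO2 reduce quinones in a single step that avoids radical intermediates, and UGT1A1 conjugates bilirubin and many lipophilic compounds to glucuronic acid. In a stratified epithelium such as that of the rumen, basal cells divide on the basement membrane and spinous cells lie above them, closer to the contents of the organ.

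The libraries of calves 1, 2 and 3 held between 82263092 and 106145091 counts of unique molecular identifiers (UMIs), and 24042 cells remained after filtering. Of these, 21128 were epithelial, 1325 endothelial, 802 immune, 473 fibroblasts and 314 mural cells, and every listed marker of each class was highest in that class. Calf 1 contributed only 17 fibroblasts, 6 mural cells and 9 immune cells, so values for those classes rest on calves 2 and 3. Most immune cells came from calf 3, with 720 against 73 in calf 2. Epithelial cells fell into 12 clusters, which were built with the members and the related enzymes left out of the clustering genes. Levels below are UMIs of a gene for every 10000 UMIs counted in all cells of one kind from a calf, written as UMIs per 10000. Free RNA was present, since KRT5, a basal keratin, reached 3.52% to 9.46% of its epithelial level in the other classes and was found in 27.4% of endothelial and 26.4% of immune cells thinned to 2000 UMIs, against 97.9% of epithelial cells. Pairs of libraries shared 21, 29 and 37 cell barcodes. Each library came from 1 animal. Differences in level between calves are taken out by the fit. A p-value then sets the mean difference between groups against its unevenness from calf to calf. That unevenness is estimated over all groups of a fit together, with mural cells included in the class fit. Intervals on counts and shares cover counting error only. With sums of cells, fewer expressing cells and less RNA per cell cannot be told apart, and shares of positive cells are therefore given for the members that the results turn on.

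The alpha-class transferase GSTA1 was nearly restricted to one epithelial state. Its epithelial levels were 0.254, 0.0616 and 0.109 UMIs per 10000 in calves 1, 2 and 3, with 2439 UMIs in all. Outside the epithelium it was close to absent, with 1 UMI among 6239192 in endothelial cells, from calf 1, and 2 in the immune cells of calves 2 and 3. The epithelial and endothelial levels did not overlap between calves, and the pooled ratio was 82.1 with an exact 95% counting interval of 14.7 to 3243. Against immune cells the pooled ratio was 17.0 with an interval of 4.71 to 141. Both differences passed the test (edgeR adjusted p = 1.20e-05 and 0.000420), the second not without calf 3 (0.156), where immune cells are left with 1 sum. Against fibroblasts, which held 2 GSTA1 UMIs, the ratio was 3.89 with an interval of 1.07 to 32.2, and the difference did not pass (edgeR adjusted p = 0.0507, and 0.0227 without the filter on low counts).

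**Figure D1:**
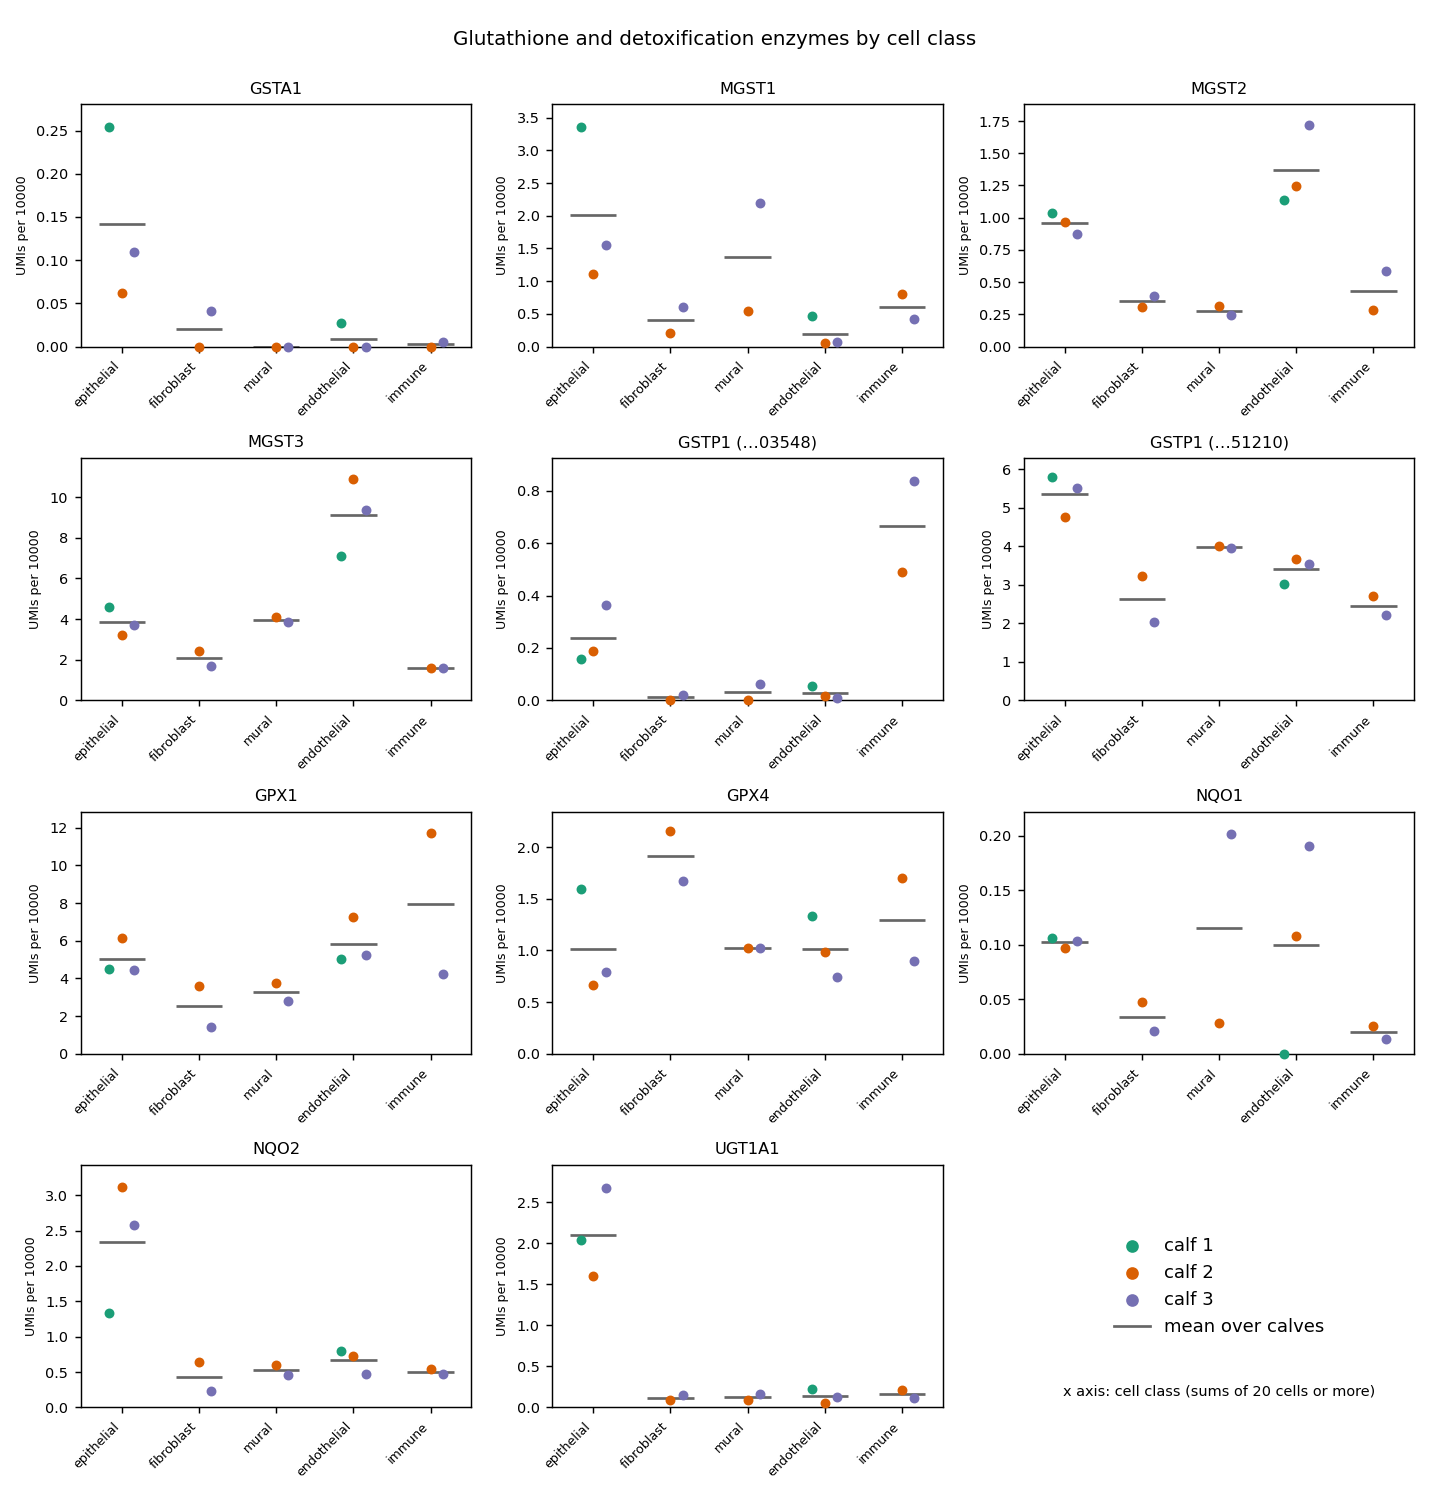
Levels of the 11 member rows in the 5 cell classes, as UMIs per 10000 on a linear axis from 0, with 1 point per calf, bars for means over calves, and no point for sums of fewer than 20 cells (calf 1 in fibroblast, mural and immune cells). Mean levels of UGT1A1, NQO2 and GSTA1 are highest in epithelial cells, of MGST3 in endothelial cells, and of the GSTP1 row with fewer counts in immune cells.

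Within the epithelium most GSTA1 came from a single cluster. This cluster, number 9, was spinous-like and led by SPINK5, KRTDAP and A2ML1, genes of the differentiating keratinocyte. Its mean marker score was 2.795 for spinous and 0.831 for granule genes, both above the limit of 0.5 for a name. The granule score was the highest of the 12 clusters and no cluster took the granule name, so granule-like cells were not told apart. Cluster 9 held 5.63%, 5.00% and 2.68% of the epithelial cells of calves 1, 2 and 3 but 89.2%, 80.8% and 73.4% of their epithelial GSTA1 UMIs. The levels there were 3.22, 0.660 and 2.34 UMIs per 10000, against 0.0269, 0.0235 and 0.0205 in the summed basal-like clusters. All 3 spinous-like values lay above every basal-like value, while calf 2 was lowest among them. The log2 difference between spinous-like and basal-like cells was 6.33 with an SE of 0.41 (edgeR adjusted p = 2.17e-06), and it was higher in 3 of 3 calves. At 2000 UMIs per cell, GSTA1 was found in 28.6% of the spinous-like cells of calf 1 (95% interval 23.1 to 34.6), 8.91% of those of calf 2 (6.32 to 12.1) and 24.1% of those of calf 3 (18.4 to 30.7). Even at full depth, with 59.7%, 24.6% and 45.7% of these cells positive, GSTA1 was found in only part of the cluster. In the basal-like clusters the thinned shares were 0.581%, 0.343% and 0.458%. GSTA1 lies in a row of alpha-class paralogs, next to GSTA2 and GSTA5 in RefSeq, and reads shared with near-identical copies make its level uncertain.

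GSTP1, the pi-class transferase that is common in epithelia, gave unlike patterns in its 2 rows. The row with more counts, ENSBTAG00000051210, was present in all classes. Its levels were 5.81, 4.76 and 5.51 UMIs per 10000 in the epithelial cells of calves 1, 2 and 3, and 2.70 and 2.21 in the immune cells of calves 2 and 3. Epithelial values lay above all values of the other classes in the calves compared. It was higher in epithelial cells than in fibroblasts by 1.49 ± 0.22 on the log2 scale (SE), than in endothelial cells by 1.03 ± 0.18 and than in immune cells by 1.45 ± 0.22, with edgeR adjusted p = 9.12e-05, 0.000203 and 6.52e-05. The other row, ENSBTAG00000003548, was highest in immune cells instead. Its immune levels were 0.489 and 0.840 UMIs per 10000 in calves 2 and 3, against 0.188 and 0.365 in the epithelial cells of the same calves. The fitted difference, epithelial minus immune, was -1.03 ± 0.33 (SE, edgeR adjusted p = 0.0193). That call rested on calf 3 and on the method, with an adjusted p of 0.184 without calf 3 and of 0.173 in DESeq2. The same row was nearly silent in endothelial cells, with 9 UMIs in 3 calves, so that its pooled epithelial level was 17.0 times higher with an exact 95% counting interval of 8.93 to 37.1. In fibroblasts it had 1 UMI, for a ratio of 25.1 with an interval of 4.51 to 993. In thinned cells this row was found in 12.2% of immune cells, 4.66% of epithelial cells and 0.344% of endothelial cells. KRT5, for comparison, was found in 26.4% of the same immune and 27.4% of the same endothelial cells.

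Across epithelial states the 2 GSTP1 rows differed again. The row with fewer counts was at 0.0450, 0.0457 and 0.0812 UMIs per 10000 in the spinous-like cluster of calves 1, 2 and 3, against 0.228, 0.240 and 0.347 in basal-like cells, without overlap. Its log2 difference, spinous-like minus basal-like, was -2.18 ± 0.19 (SE, edgeR adjusted p = 1.98e-05). The row with more counts stood at 3.68, 3.99 and 7.0 in spinous-like and at 6.70, 6.10 and 6.22 in basal-like cells, where calf 3 went the other way, and did not pass the test (-0.32 ± 0.17, edgeR adjusted p = 0.169). That result depended on the setting, with an adjusted p of 0.00890 without calf 3 and of 0.00389 without the filter on low counts. RefSeq lists GSTP1 beside a second gene, LOC281806, that carries GSTP1 as an older name. Which row belongs to which of these neighbours was not resolved here, so both GSTP1 levels are uncertain.

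MGST1 and MGST3 were both higher in the spinous-like cluster. MGST1 is an abundant membrane transferase with peroxidase activity, and MGST3 is its relative with activity toward leukotriene precursors and lipid peroxides. MGST3 levels were 15.1, 12.4 and 13.5 UMIs per 10000 in the spinous-like cells of calves 1, 2 and 3, against 3.94, 3.44 and 4.23 in basal-like cells. The values did not overlap, and the log2 difference was 1.94 ± 0.11 (SE, edgeR adjusted p = 9.87e-07). MGST1 levels were 6.66, 4.39 and 5.43 in spinous-like cells and 3.38, 1.10 and 1.60 in basal-like cells. Again the spinous-like values lay above all basal-like values, and the difference of 1.69 ± 0.18 passed (edgeR adjusted p = 6.17e-05, and 0.0506 without the calf as a block). GSTA1, MGST1 and MGST3 were the 3 members called higher, 3 of 11 rows, where 17.7% of the 11410 genes tested were called higher. Thinned to equal depth, 69.0%, 56.2% and 65.8% of spinous-like cells had an MGST1 UMI and 85.3%, 71.3% and 77.4% an MGST3 UMI.

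**Figure D2:**
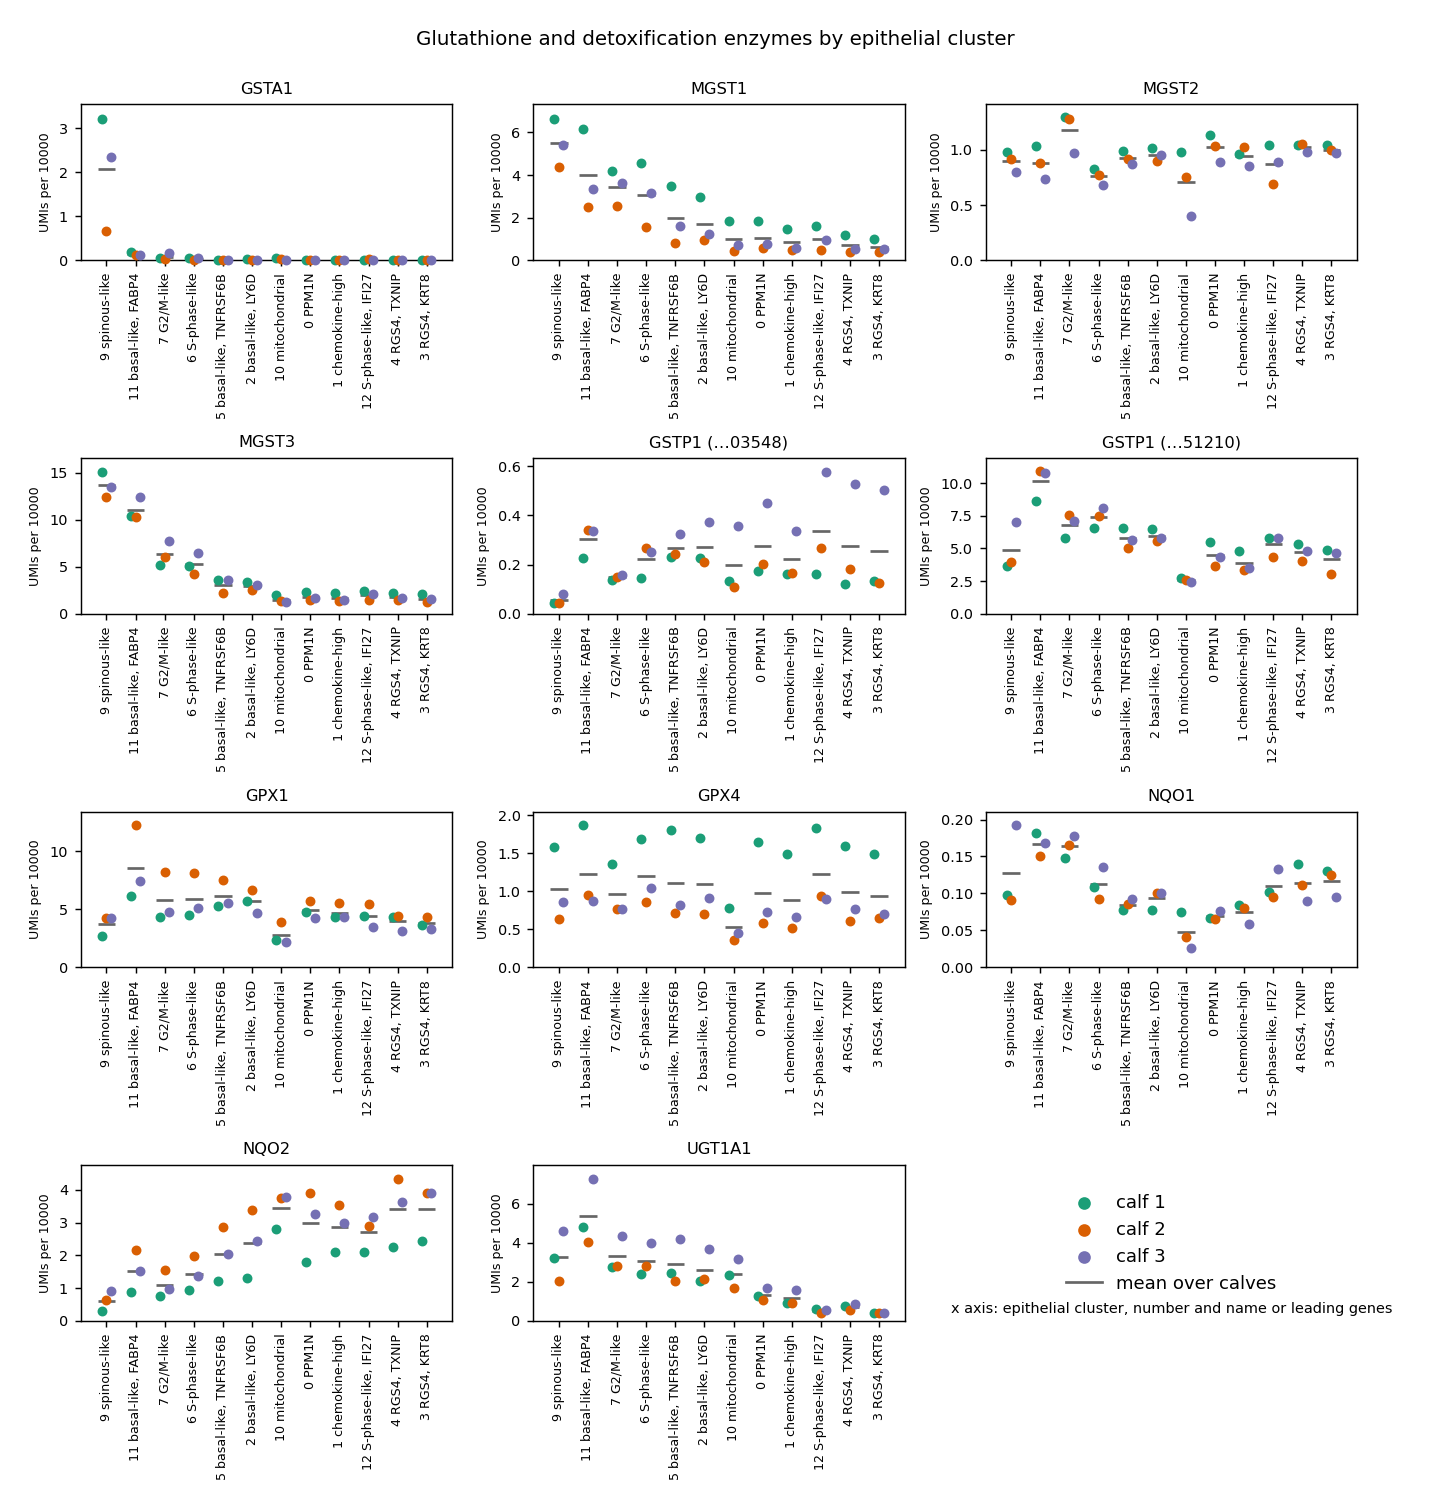
Levels of the 11 member rows in the 12 epithelial clusters, as UMIs per 10000 on a linear axis from 0, with 1 point per calf, bars for means over the 3 calves, and each cluster under its number with a marker-based name or leading genes. The mean of MGST3 is 13.7 in the spinous-like cluster on the left and 1.62 in cluster 3 on the right, while that of NQO2 is 0.616 and 3.42.

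Among cell classes MGST3 was highest in endothelial cells, not in the epithelium. Endothelial levels were 7.10, 10.9 and 9.38 UMIs per 10000 in calves 1, 2 and 3, against 4.61, 3.23 and 3.70 in epithelial cells of the same animals. No calf overlapped, and after thinning 81.3% of endothelial and 38.1% of epithelial cells were positive. The fitted difference, epithelial minus endothelial, was -0.86 ± 0.20 (SE, edgeR adjusted p = 0.00219). It failed without calf 2 or without calf 3 (adjusted p = 0.154 and 0.0643), although the sign held. Endothelial cells were themselves unequal. The smaller endothelial cluster, led by S100A4, IGFBP3 and CYP1A1, reached 16.4 and 12.7 in calves 2 and 3, and the larger, led by MEOX1, RNASE1 and PLVAP, reached 9.69 and 7.87, so the smaller was higher in both. In calf 1 the smaller held only 17 cells and is not compared. Compared with fibroblasts and immune cells, epithelial MGST3 was higher by 1.36 ± 0.26 and 1.56 ± 0.25 (edgeR adjusted p = 0.000648 and 0.000125). The former did not pass without calf 3 (0.0919). Mural cells, the contractile cells around vessels, had 4.09 and 3.84, within the epithelial range of calves.

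MGST1 separated epithelium from endothelium. Its epithelial levels were 3.36, 1.12 and 1.55 UMIs per 10000, and its endothelial levels were 0.471, 0.0498 and 0.0721, all below the lowest epithelial value. The difference was 4.36 ± 0.43 on the log2 scale (edgeR adjusted p = 7.57e-07). In calves 2 and 3 the endothelial level was 4.46% and 4.64% of the epithelial one, next to 4.67% and 3.52% for KRT5 in the same cells. In calf 1 the shares were 14.0% for MGST1 and 7.97% for KRT5. Mural cells of calf 3 had 2.19, above their epithelial 1.55, while those of calf 2 had 0.539. Against fibroblasts the difference was 2.06 ± 0.50 and against immune cells 1.52 ± 0.45 (edgeR adjusted p = 0.00462 and 0.0122). The second of these was lost in DESeq2 and without calf 3 (adjusted p = 0.162 and 0.364).

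MGST2, the third membrane transferase, which can make leukotriene C4, hardly varied within the epithelium. Epithelial levels were 1.03, 0.963 and 0.875 UMIs per 10000 in calves 1, 2 and 3, and cluster means ran only from 0.713 to 1.18. Endothelial cells had 1.14, 1.25 and 1.72, more than epithelial cells in 3 of 3 calves, but the fitted difference of -0.13 ± 0.22 did not pass (edgeR adjusted p = 0.661). Scaling bears on that value, because TMM factors put the fitted epithelial-endothelial differences 0.38 above those of plain UMIs per 10000. No called member changed sign with the scaling in any of the 5 comparisons. Fibroblasts had 0.308 and 0.392 and immune cells 0.283 and 0.586 in calves 2 and 3, both below the epithelial range, with differences of 1.93 ± 0.34 and 1.33 ± 0.29 (edgeR adjusted p = 0.000339 and 0.00133). Spinous-like and basal-like cells differed by 0.05 ± 0.09 (edgeR adjusted p = 0.708).

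GPX1 was found in all classes. Its epithelial levels were 4.52, 6.15 and 4.45 UMIs per 10000, its endothelial levels 5.05, 7.25 and 5.22, and its immune levels 11.7 and 4.21 in calves 2 and 3. The immune values differed widely and spanned the epithelial ones. Of the 2 immune clusters, the one led by MHC class II genes, CD74 and FCER1A had 14.6 and 4.71, and the one led by CD3E, CTSW and CCL5 had 3.73 and 2.53. In calf 2 these clusters held only 45 and 28 cells. Neither the endothelial nor the immune comparison passed (edgeR adjusted p = 0.522 and 0.732). Fibroblasts, at 3.60 and 1.42, were lower than epithelial cells by a log2 difference of 1.64 ± 0.26 (edgeR adjusted p = 0.000140). In the spinous-like cluster GPX1 was lower than in basal-like cells, with spinous-like levels of 2.73, 4.22 and 4.26 and basal-like levels of 5.60, 7.77 and 5.33. Every spinous-like value lay below every basal-like value, and the difference was -0.63 ± 0.14 (edgeR adjusted p = 0.00583, 0.0819 without calf 1 and 0.247 without the calf as a block).

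GPX4 was the 1 member that was higher in fibroblasts. Fibroblasts of calves 2 and 3 had 2.16 and 1.67 UMIs per 10000, against 0.663 and 0.796 in their epithelial cells. The fitted difference, epithelial minus fibroblast, was -0.86 ± 0.23 (SE, edgeR adjusted p = 0.00918). Calf 1, whose 17 fibroblasts were too few for the fit, had an epithelial level of 1.59, close to the fibroblast value of calf 3. Without calf 2 or without the calf as a block the call was lost (adjusted p = 0.396 and 0.384). Endothelial cells had 1.33, 0.983 and 0.738 and immune cells 1.70 and 0.893, which overlapped with the epithelium and did not pass (edgeR adjusted p = 0.205 and 0.247), though the endothelial difference did without calf 2 (0.0485, higher in epithelial cells). The spinous-like to basal-like difference was -0.02 ± 0.11 (edgeR adjusted p = 0.927).

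NQO2 ran opposite to MGST1 and MGST3 in the epithelium. Its levels were 0.307, 0.630 and 0.910 UMIs per 10000 in the spinous-like cells of calves 1, 2 and 3 and 1.24, 3.01 and 2.17 in basal-like cells. These values did not overlap, and the log2 difference was -1.72 ± 0.18 (edgeR adjusted p = 5.91e-05). Cycling-like cells stood between, at 0.970, 1.90 and 1.49, and were below basal-like cells in 3 of 3 calves by a log2 difference of -0.69 ± 0.16 (edgeR adjusted p = 0.0140). With at most 20% mitochondrial UMIs, or without calf 1 or calf 2, that difference missed the threshold (adjusted p = 0.0772, 0.0640 and 0.0619), as it did without the calf as a block (0.599). The cycling-like group joined clusters 6, 7 and 12, which were not alike. Cluster 12, S-phase-like, had NQO2 levels of 2.10, 2.90 and 3.19 in calves 1, 2 and 3, above basal-like cells in calves 1 and 3. Clusters 6 and 7 were below basal-like cells in each calf. The highest mean NQO2 of the 12 clusters, 3.44, was in cluster 10, a shallow cluster led by mitochondrial genes. It had a median of 2495.5 UMIs, and a median of 18.2% of UMIs were mitochondrial. NQO2 was also high in clusters 3 and 4, which had the lowest mean MGST1 levels of the 12. Cluster 3, led by RGS4, KRT8 and PLAC8, had 2.43, 3.90 and 3.91, and cluster 4, led by RGS4 and IFI6, had 2.26, 4.33 and 3.62. NQO2 was also an epithelial gene among classes, at 1.33, 3.12 and 2.59 against 0.804, 0.726 and 0.479 in endothelial cells, with no overlap. It was higher than in fibroblasts by 3.06 ± 0.38, than in endothelial cells by 2.28 ± 0.28 and than in immune cells by 2.57 ± 0.33 on the log2 scale (edgeR adjusted p = 1.60e-05, 7.74e-06 and 1.74e-05).

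NQO1, the better known of the quinone reductases and a target of the NRF2 factor, was sparse. Epithelial levels were 0.106, 0.0972 and 0.103 UMIs per 10000 in calves 1, 2 and 3, nearly equal between animals, and 1.91% of thinned epithelial cells were positive. Immune cells of calves 2 and 3 held 6 NQO1 UMIs, for a pooled ratio of 6.64 with an exact 95% counting interval of 3.04 to 18.1, and the difference passed (edgeR adjusted p = 0.00286). Fibroblasts held 3, for a ratio of 3.03 with an interval of 1.04 to 14.7, and did not pass (edgeR adjusted p = 0.0820, 0.0133 without the filter on low counts and 0.0380 without calf 2). Endothelial levels of 0, 0.108 and 0.190 straddled the epithelial ones. Neither spinous-like nor cycling-like cells differed from basal-like cells past the threshold (edgeR adjusted p = 0.133 and 0.287).

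UGT1A1 was higher in epithelial cells than in each class compared. Epithelial levels were 2.04, 1.59 and 2.68 UMIs per 10000 in calves 1, 2 and 3. In the other classes no calf with at least 20 cells exceeded 0.222, an endothelial value. Differences were 4.51 ± 0.42 against fibroblasts, 4.73 ± 0.30 against endothelial cells and 4.30 ± 0.37 against immune cells (edgeR adjusted p = 8.32e-07, 5.92e-09 and 2.66e-07). The UGT1A1 that remained outside the epithelium was 3.38% to 12.9% of the epithelial level of the same calf, close to the 3.52% to 9.46% of KRT5, and after thinning 2.24% of endothelial and 27.4% of epithelial cells were positive. UGT1A1 overlaps UGT1A6 in RefSeq, and the genes of this locus share their last exons, so counts of transcript ends under this name may belong to several of them. Spinous-like and basal-like levels overlapped, 3.23, 2.04 and 4.62 against 2.40, 2.37 and 4.26, and did not pass (edgeR adjusted p = 0.227).

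**Figure D3:**
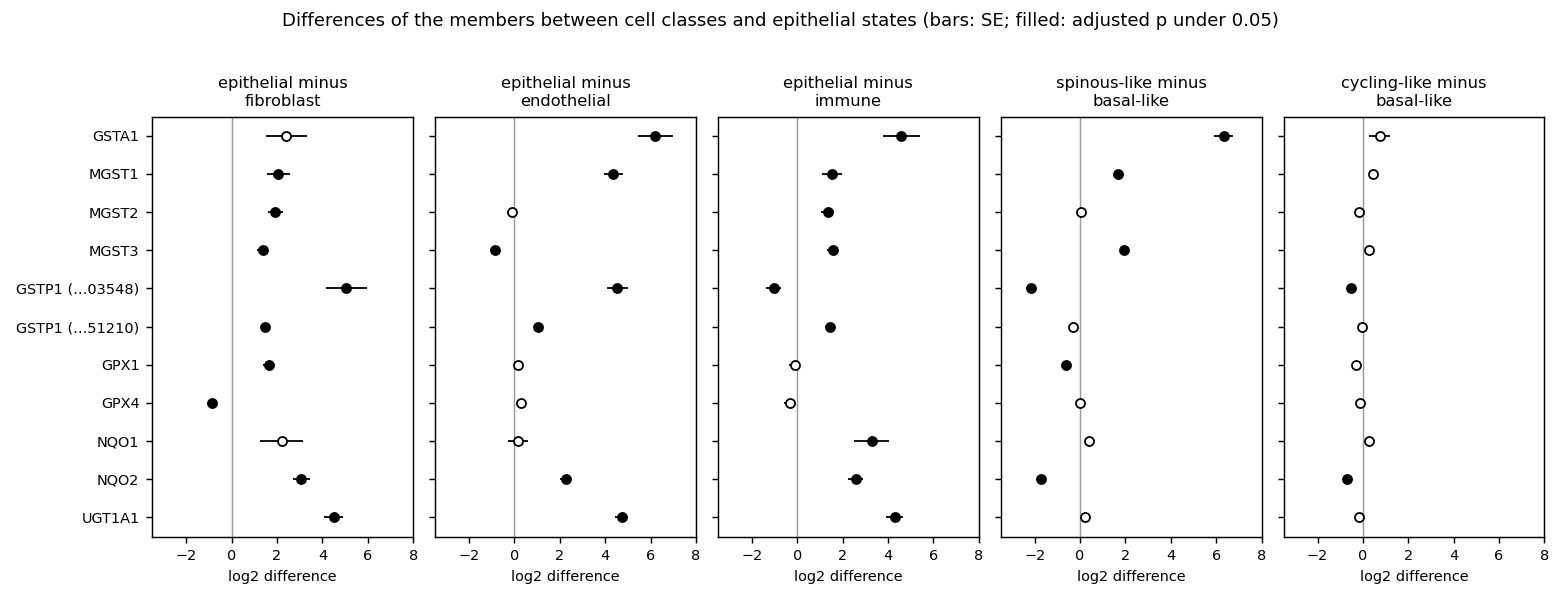
Log2 differences of the 11 member rows in 5 comparisons from sums per calf, with the SE as horizontal bars, filled points for an adjusted p under 0.05 over all genes tested and open points for the rest. The class comparisons lie mostly to the right of 0, whereas spinous-like against basal-like cells has 3 filled points on each side.

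Counted over the set, 8 of 11 rows were higher in epithelial cells than in fibroblasts and 1 was lower, where 18.3% and 19.3% of 10757 genes were called in those directions. Against endothelial cells 6 rows were higher and 1, MGST3, lower, beside 23.7% and 24.9% of genes. Against immune cells 8 were higher and 1, the GSTP1 row with fewer counts, was lower, beside 24.8% and 23.4%. In spinous-like against basal-like cells 3 rows were higher and 3 lower, beside 17.7% and 18.1%. In cycling-like against basal-like cells no row was called higher and 2 were lower, NQO2 and the GSTP1 row with fewer counts, beside 12.1% and 9.79% of genes. DESeq2 also called 0 rows higher, whereas at an unadjusted edgeR p under 0.05 2 were, MGST1 and MGST3, each with a higher level in cycling-like cells in 3 of 3 calves, and without the filter on low counts 3 were called. The GSTP1 row with fewer counts had 0.142, 0.232 and 0.264 UMIs per 10000 in cycling-like cells of calves 1, 2 and 3, a difference of -0.54 ± 0.13 (edgeR adjusted p = 0.0136) that did not pass without calf 1, without calf 3 or without the calf as a block (0.114, 0.0954 and 0.497). Within the cycling-like group, cluster 12 differed from clusters 6 and 7. Its mean MGST1 was 1.02 against 3.08 and 3.46, and its mean UGT1A1 0.530 against 3.07 and 3.32. For the GSTP1 row with fewer counts the means were 0.335 against 0.221 and 0.148.

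Basal-like cells were not uniform for these enzymes. The basal-like group joined clusters 2 and 5, both with IL1R2, and a small cluster 11 of 464 cells. Leading genes of cluster 11 included FABP4, a fatty acid carrier, CYP26A1, which breaks down retinoic acid, the basal marker KRT14 and the spinous marker GJA1. Its mean marker score was 0.78 for basal and 0.561 for spinous genes, both above the limit of 0.5 for a name. The higher score gave the name, so its place between basal and spinous cells is uncertain. The name of cluster 5, led by TNFRSF6B, was close as well, at 0.543 for basal and 0.525 for chemokine-high genes. The paper gave TNFRSF6B-positive epithelial cells, with basal and granule markers, a subtype of their own. The paper named its channel-gap-like spinous cells by GJA1. Among their marker genes it also listed FABP4, GSTA1 and MGST3, as well as FABP5 and KRTDAP. FABP4 and GJA1 lead cluster 11 here, whereas KRTDAP leads cluster 9. Which cluster matches the paper's cells was not tested. Cluster 11 held the highest mean level of the GSTP1 row with more counts, GPX1, GPX4, NQO1 and UGT1A1 among all 12 clusters, and the second highest of GSTA1, MGST1 and MGST3. UGT1A1 levels there were 4.83, 4.05 and 7.25 UMIs per 10000 in calves 1, 2 and 3, the highest of any cluster in each calf. The GSTP1 row with more counts had 8.65, 10.9 and 10.8, above every other cluster in each calf, as did GPX1 at 6.11, 12.3 and 7.39. MGST3 had 10.4, 10.3 and 12.4, between the spinous-like cluster and all others. Cluster 11 also held more mitochondrial RNA, with a median of 11.7% of UMIs, and was deeper, with a median of 11524 UMIs, and the part of these in the result was not tested. No fit left cluster 11 out, so how far results against basal-like cells depended on it was not tested. Cluster 11 was instead set alone as the basal-like reference, a choice made after seeing the data. Against it spinous-like cells had less UGT1A1, by -0.59 on the log2 scale (edgeR adjusted p = 0.0165). Cycling-like cells had less MGST3 and MGST1, by -1.24 and -0.57 (4.30e-05 and 0.0130). These were opposite in direction to the differences from all basal-like cells, none of which had passed. The spinous-like calls of GSTA1, MGST1, MGST3 and NQO2 kept their direction and stayed past the threshold.

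Each cluster was then set against the mean of the other 11 within calves. In cluster 11 the test called 9 rows higher and NQO2 lower, where 16.6% of 11190 genes were called higher and 15.3% lower. Examples were MGST3 with 1.99 ± 0.11 on the log2 scale (edgeR adjusted p = 1.49e-15), UGT1A1 with 1.79 ± 0.10 (6.47e-16), the GSTP1 row with more counts with 1.09 ± 0.13 (3.71e-08) and GPX1 with 0.91 ± 0.12 (1.66e-07). In the spinous-like cluster 9, 6 rows were higher and 2 lower, beside 27.1% and 22.7% of genes. There GSTA1 differed by 7.10 ± 0.18 (edgeR adjusted p = 1.63e-26), MGST3 by 2.51 ± 0.11 (4.86e-20) and MGST1 by 2.31 ± 0.12 (1.59e-17). UGT1A1 was higher too, by 1.19 ± 0.10 (edgeR adjusted p = 5.68e-12). The smaller calls for GPX4 and NQO1, 0.27 ± 0.09 and 0.52 ± 0.17 (edgeR adjusted p = 0.0132 and 0.0134), were higher in only 2 and 1 of 3 calves by level. In cluster 3, NQO2 alone was higher and 5 rows were lower, beside 20.1% and 16.6% of genes. UGT1A1 was lowest there, at 0.419, 0.398 and 0.428 UMIs per 10000, with a difference of -2.20 ± 0.14 (edgeR adjusted p = 7.46e-14), followed by MGST1 with -1.44 ± 0.17 (4.01e-08) and MGST3 with -1.09 ± 0.15 (6.54e-07). The clusters came from the same cells, although the members did not enter their construction, and these p-values treat the clusters as given. Their spread is pooled over all clusters of the 3 calves, so small p-values do not stand for more animals.

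**Figure D4:**
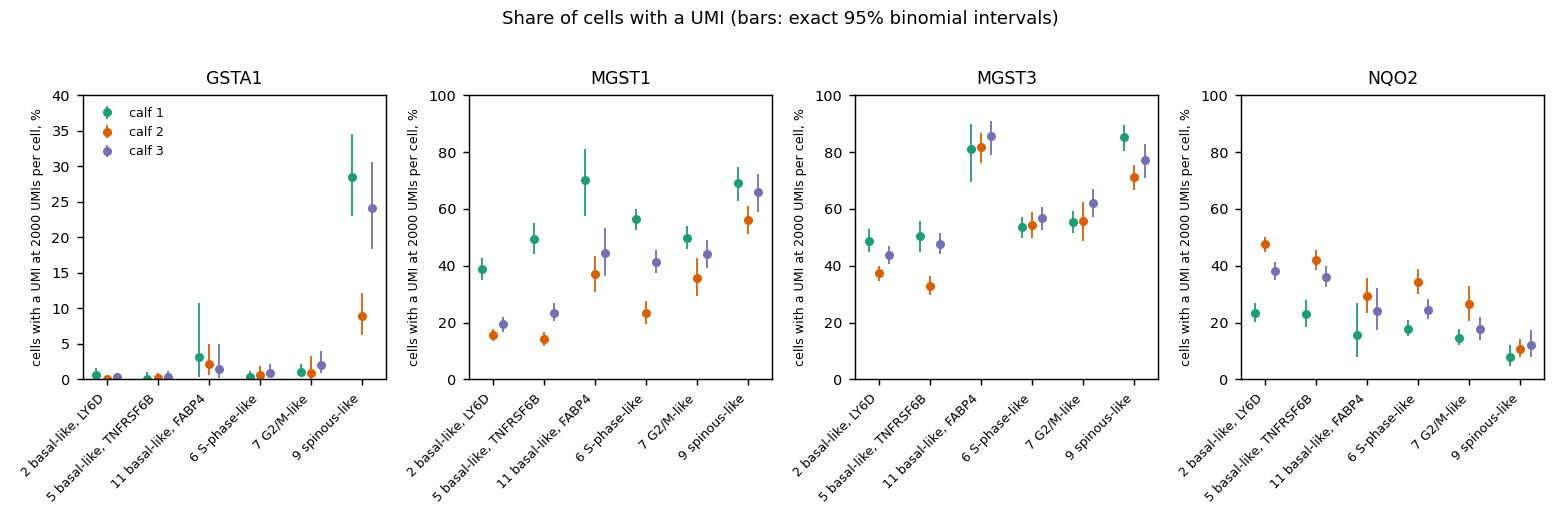
Share of cells with a UMI of GSTA1, MGST1, MGST3 or NQO2 in 6 epithelial clusters, in percent after thinning each cell to 2000 UMIs, with 1 point per calf, exact 95% binomial intervals and an axis up to 40% for GSTA1 and 100% for the others. The spinous-like cluster has the highest GSTA1 shares, from 8.91% to 28.6%, and NQO2 shares of 7.94% to 12.1%.

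The order of the clusters can be read from the means over calves. For MGST3 it ran from the spinous-like cluster, at 13.7 ± 1.34 UMIs per 10000 (SD, n = 3 calves), over cluster 11 at 11.02 ± 1.22 and the G2/M-like cluster 7 at 6.36 ± 1.31 to 1.52 ± 0.421 in cluster 10, the shallow cluster led by mitochondrial genes. The ranges of calves nearly met between the spinous-like cluster, with a lowest value of 12.438, and cluster 11, with a highest of 12.426. They were apart between cluster 11 and cluster 7, between cluster 6, at 5.26 ± 1.13, and cluster 5, and between clusters 2 and 12. All other neighbours in the order overlapped. For MGST1, with 5.49 ± 1.14 in the spinous-like cluster and 0.640 ± 0.335 in cluster 3, all neighbours in the order overlapped. For GSTA1 the only step without overlap between neighbours was that from the spinous-like cluster, at 2.07 ± 1.30, to cluster 11, at 0.140 ± 0.0370. For NQO2, GPX1, GPX4, NQO1 and MGST2 all neighbours overlapped. Handling genes such as FOS and ATF3 varied too, with summed levels of 126 to 183 in the chemokine-high cluster 1 and 15.9 to 42.2 in the spinous-like cluster, and their part in the order was not tested.

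Between calves, several members differed in the same way in all or most epithelial clusters. MGST1 was highest in calf 1 and lowest in calf 2 in 12 of 12 clusters. GPX4 was highest in calf 1 in 12 of 12, with a total epithelial level of 1.59 against 0.663 and 0.796. NQO2 was lowest in calf 1 in 12 of 12, at 1.33 against 3.12 and 2.59. GPX1 was highest in calf 2 in 11 of 12, UGT1A1 in calf 3 in 11 of 12 and the GSTP1 row with fewer counts in calf 3 in 10 of 12. Clusters of a calf share their animal and library, so these counts describe 3 libraries and carry no test.

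The patterns of the members over the 12 clusters were compared by correlation. On log2(UMIs per 10000 + 0.1), averaged over calves, Pearson's r was 0.97 between MGST1 and MGST3, -0.96 between MGST1 and NQO2 and -0.94 between MGST3 and NQO2. It was 0.82 between MGST1 and UGT1A1 and 0.90 between the GSTP1 row with more counts and GPX1. The GSTP1 rows correlated at 0.26, and the one with fewer counts at -0.81 with GSTA1. These are descriptions over 12 points that share libraries and depth. GSTA1 averaged 2.07 UMIs per 10000 in cluster 9 and at most 0.140 in any other, so its correlations rest mostly on that cluster. Among 3047 genes with at least 0.5 UMIs per 10000 in some cluster, those most like GSTA1 were GJB2, RBP2 and BPIFA2C, with r from 0.988 to 0.992. GJB2, a gap junction gene, was also a leading gene of cluster 9. Most like MGST3 were BPNT1, FADD and PRDX6, a peroxidase of phospholipids, with r of 0.993 to 0.994. MGST1 was closest to IMPA2, FAM162A and FABP5, a fatty acid carrier of keratinocytes, with r from 0.983 to 0.986. NQO2 was closest to FBLN2, RBPJ and CRIM1, with r from 0.967 to 0.968, and UGT1A1 to ACO1, with r of 0.976. MGST2 had no close match, with 0.890 for DTD1.

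The other enzymes of the pathway were counted from lists by role. Over all genes tested, 18.3%, 23.7% and 24.8% were higher and 19.3%, 24.9% and 23.4% lower in epithelial cells than in fibroblasts, endothelial cells and immune cells. Of the genes for glutathione synthesis and recycling, 14 were tested. Against fibroblasts 7 were higher in epithelial cells and 1 lower, against endothelial cells 8 and 1, and against immune cells 6 and 4, with median log2 differences of 1.16, 0.88 and 0.58 beside 0.07, 0.01 and 0.09 for all genes. GSR, which regenerates reduced glutathione, stood at 1.74 ± 0.121 UMIs per 10000 in epithelial cells (SD, n = 3 calves) and at 0.263 ± 0.0365 in endothelial cells. The difference was 3.14 ± 0.22 on the log2 scale (SE, edgeR adjusted p = 1.61e-08), and that against fibroblasts was 4.51 ± 0.36 (1.68e-07). The 2 subunits of the first enzyme of glutathione synthesis differed. GCLM, the modifier subunit, was higher in epithelial than in immune cells by 2.68 ± 0.30 (edgeR adjusted p = 3.79e-06), whereas GCLC, the catalytic one, was lower by a log2 difference of -2.03 ± 0.37 (0.000365). GCLC levels were 0.0690 ± 0.0197 in epithelial cells and 0.411 and 0.315 in the immune cells of calves 2 and 3. SLC7A11, the cystine importer, was barely detected in epithelial cells, at 0.000397, 0.000300 and 0.000586 UMIs per 10000.

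Among other transferases 12 were tested between classes. Against fibroblasts 5 were higher in epithelial cells and 2 lower, and against immune cells 9 and 2. Against endothelial cells 8 were higher and 1 lower, LTC4S, with a difference of -7.47 ± 0.66 (edgeR adjusted p = 2.52e-07). LTC4S makes leukotriene C4, and it stood at 0.396 ± 0.0848 UMIs per 10000 in endothelial and 0.00169 in epithelial cells. Of the prostaglandin and leukotriene members of the list, PTGES was higher in epithelial than in endothelial cells by 5.91 ± 0.46 (edgeR adjusted p = 6.33e-08), and ALOX5AP, which presents arachidonic acid to its lipoxygenase, was lower than in immune cells by a log2 difference of -10.54 ± 0.55 (1.14e-08). One GSTM1 row, ENSBTAG00000037673, was higher than in fibroblasts (edgeR adjusted p = 3.88e-05), with 0.491 and 1.01 UMIs per 10000 in the epithelial cells and 0 and 0.0413 in the fibroblasts of calves 2 and 3. The drug methyltransferase TPMT, of the other conjugating enzymes, was higher than in fibroblasts by 4.12 ± 0.30 (edgeR adjusted p = 6.49e-08). AKR1B1, aldose reductase, was lower by a log2 difference of -5.55 ± 0.59 (edgeR adjusted p = 3.62e-06), ALDH1A1, a retinal dehydrogenase, by -3.29 ± 0.43 (2.56e-05) and GGT5, a glutamyl transferase, by -2.95 ± 0.49 (0.000240). ALDH1A1 stood at 2.68 and 13.5 UMIs per 10000 in the fibroblasts of calves 2 and 3. The other genes named for the endothelial comparison were NFE2L3, a relative of NRF2, and ME1, malic enzyme, with 5.35 ± 0.63 and 5.33 ± 0.49 (edgeR adjusted p = 4.99e-06 and 3.26e-07), and, on the lower side, CYP1A1 and SULT1B1 with -6.44 ± 0.95 and -6.43 ± 0.33 (0.000135 and 4.39e-09). For the immune comparison they were ALDH3A1, the metallothionein MT1A and UGT2A1, all higher (edgeR adjusted p = 0.00866, 0.0298 and 0.000163), and LTC4S and AKR1B1, lower by log2 differences of -9.05 ± 0.70 and -3.71 ± 0.57 (9.62e-08 and 8.00e-05). Of 24 other peroxidases and antioxidant enzymes, 12, 14 and 11 were higher in epithelial cells than in fibroblasts, endothelial cells and immune cells, and 5, 3 and 1 were lower. Of 24 other conjugating and reducing enzymes, 9, 15 and 14 were higher and 5, 5 and 6 lower, the lower counts being close to the shares over all genes. Of 12 regulators 1, 3 and 1 were higher and 3, 4 and 5 lower. Median log2 differences of the regulators were -0.33, -0.13 and -0.61.

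In spinous-like against basal-like cells, 12 of 25 other conjugating and reducing enzymes were higher and 5 lower, with a median log2 difference of 0.80 beside -0.05 for all genes, of which 17.7% were called higher and 18.1% lower. SULT2B1, the cholesterol sulfotransferase of the outer epidermis, differed by 5.52 ± 0.41 (edgeR adjusted p = 5.83e-06), with spinous-like levels of 0.301, 1.21 and 0.103 against 0.0202, 0.0125 and 0.00455. SULT1B1 differed by 5.03 ± 0.48 (edgeR adjusted p = 3.14e-05) at spinous-like levels of only 0.0417 to 0.0555. GSTA2, the neighbour of GSTA1, differed by 4.46 ± 0.63 (edgeR adjusted p = 0.000410), yet its calf order was not that of GSTA1, with 0.0141, 0.0815 and 0.282 in calves 1, 2 and 3. On the lower side were CBR1, a carbonyl reductase, with -2.14 ± 0.41 (edgeR adjusted p = 0.00234) and the endoplasmic reticulum peroxidases GPX8 and GPX7 with -2.21 ± 0.29 and -1.91 ± 0.32 (0.000262 and 0.00117). Of 24 other antioxidant enzymes 9 were higher and 5 lower, of 14 synthesis and recycling genes 5 and 2, of 13 other transferases 3 and 3, and of 13 regulators 3 and 1. TXNRD1, thioredoxin reductase, was higher by 2.50 ± 0.24 (edgeR adjusted p = 3.14e-05), at 1.19, 0.672 and 0.329 against 0.254, 0.0847 and 0.102. Of the regulators, NFE2L2, which encodes NRF2, was higher by 0.85 ± 0.12 (edgeR adjusted p = 0.000411), while KEAP1, its repressor, differed by -0.01 ± 0.12 and did not pass (0.947). GSR was higher by 0.40 ± 0.10 (edgeR adjusted p = 0.00903), GCLM was lower by a log2 difference of -1.13 ± 0.20 (0.00178), and HMOX1, heme oxygenase, did not pass (0.206).

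In cluster 11 the lists of enzymes and the regulators differed in their counts, where 16.6% of all genes were called higher and 15.3% lower than the mean of the other clusters. Of 14 synthesis and recycling genes 6 were called higher, with a median of 0.34 beside -0.05 for all genes, and of 24 antioxidant and 25 other conjugating and reducing enzymes 15 each were higher and 4 and 3 lower. Of 13 other transferases 6 were higher and 2 lower, and of 13 regulators 1 and 2, with a median of -0.09. GCLM was higher by 1.17 ± 0.15 (edgeR adjusted p = 2.01e-07), and TXNRD1 and HMOX1 by 1.25 ± 0.30 and 0.98 ± 0.30 (0.00166 and 0.0117). UGT2A1, a glucuronosyltransferase like UGT1A1, was higher by 2.36 ± 0.20 (edgeR adjusted p = 2.46e-11), ALDH1A1 by 2.16 ± 0.16 (9.26e-13) and PRDX5, a mitochondrial peroxiredoxin, by 2.08 ± 0.12 (1.12e-15). In cycling-like against basal-like cells 6 of 24 antioxidant enzymes were higher and 2 lower, where 12.1% and 9.79% of all genes were called. Of 25 other conjugating and reducing enzymes 1 was higher and 2 lower, and 3 of 13 other transferases and 1 of 13 regulators were lower. GGCT, which cleaves glutamyl peptides, was the 1 of 14 synthesis genes that was higher, by 1.68 ± 0.15 (edgeR adjusted p = 1.87e-05), and TXNRD1 and PRDX4 were higher by 0.76 ± 0.23 and 0.75 ± 0.14 (0.0376 and 0.00351). The lower genes named by the rule were CBR3, TXNIP and GSTT1, with differences of -0.89, -0.85 and -0.81 (edgeR adjusted p = 0.00575, 0.0249 and 0.000376).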

How the data were processed

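Single-cell RNA was measured in 3 libraries, 1 per calf. The authors aligned reads and deposited whole-number UMI counts per gene and barcode, from Cell Ranger 3.1.0 per the submitters' processing notes. Cells were barcodes with between 500 and 4000 genes, no more than 40% of UMIs from mitochondrial genes and a total not above 50000, and 0.8% per 1000 barcodes were removed as doublets by a simulated-doublet score. Calves were joined by Harmony, and cells were clustered (30 dimensions and resolution 0.1 for classes, 50 and 0.8 for epithelial states) with members and related enzymes left out of 2000 variable genes (Python 3.11.15, numpy 2.4.6, python-igraph 0.11.9). Clusters took names from fixed markers.

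Counts were summed per calf and class or state (20 cells or more) and tested with edgeR 4.0.16 in R 4.3.3 (quasi-likelihood, TMM, Benjamini-Hochberg over all genes tested, threshold 0.05), with the calf as a block because sums of a calf share the animal. DESeq2 1.42.0 and other settings were alternatives, and the fit was tested on simulated data. Mural cells entered the class fit but were otherwise described only. All members are named, as are, per comparison, up to 3 pathway genes in each direction with the largest difference and 8 preset genes, and the 3 genes most like each member. Members and lists were chosen with earlier results of these data known. RefSeq gave neighbouring genes only. One leading gene of a cluster is not reported here.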

Additional observations from a re-analysis of the deposited data

Results flagged for a closer look

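Barcodes with more than 4000 genes were left out of all comparisons (797, 187 and 637 in calves 1, 2 and 3), and members were detected there too. Mean levels over the 3 calves were 0.246 ± 0.113 UMIs per 10000 for GSTA1 (SD), 3.24 ± 1.35 for MGST1, 1.04 ± 0.141 for MGST2 and 8.14 ± 1.2 for MGST3. GSTP1 had 0.219 ± 0.0972 in the row with fewer counts (ENSBTAG00000003548) and 6.44 ± 0.747 in the other. GPX1 had 5.78 ± 1.14, GPX4 1.12 ± 0.557, NQO1 0.125 ± 0.0139, NQO2 1.52 ± 0.627 and UGT1A1 3.13 ± 0.710. What these barcodes hold was not tested.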

How the results depend on the processing

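Depth limits NQO1, GSTA1 outside the epithelium and the GSTP1 row with fewer counts, and 3 calves limit every test. Genes called were 4042, 5227 and 5176 in the fibroblast, endothelial and immune comparisons, 4084 in the spinous-like and 2500 in the cycling-like one. Leaving out each calf gave 1859 to 3833, 3067 to 4985, 1964 to 5230, 2157 to 3372 and 980 to 1519, each lowest without calf 3 except the spinous-like one (calf 2). Members lower were then 0 to 1 in each class comparison and 0 to 1 in the cycling-like one. Members higher against immune cells were 5 to 8 and in cycling-like cells 0 to 1. Classes set from marker UMIs gave 2446 genes against endothelial cells. DESeq2 called 0 members lower against immune cells. Without Harmony the spinous-like and cycling-like comparisons had 1454 and 417 genes, with 1 member lower in cycling-like cells and GSTA1 reversed there (-2.11). At most 20% mitochondrial UMIs gave 1556 cycling-like genes and 0 members lower, and no filter on low counts 3 members higher. Against cluster 11 alone, added after seeing the data, 1625 and 1591 genes were called, 5 and 7 members were lower, and UGT1A1 (-0.59) reversed in spinous-like and MGST3 (-1.24), MGST1 (-0.57) and GSTA1 (-1.89) in cycling-like cells. The cause was not tested. Resolution 0.4 gave no basal-like cluster and so no value.

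Without the calf as a block, 1104 spinous-like and 227 cycling-like genes were called, 0 members were lower against fibroblasts and 0 in cycling-like cells, and member calls over the epithelial clusters were 36 in place of 72. MGST1 and GPX1 then lost their spinous-like calls (edgeR adjusted p = 0.0506 and 0.247). The member calls over clusters are out of 132 pairs of row and cluster. With the calf as a block, 7.50% to 49.7% of all genes were called per cluster, and the share without it is not given here. Of all log2 differences recomputed for members, 670 kept direction and side of the threshold, 24 lost and 18 gained the call, and 5 reversed.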
